A study of Mus musculus with 18 samples.

Results

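The apelin ligand gene Apln, its receptor gene Aplnr, and 4 genes associated with the leading tip cells of vessel sprouts, Esm1, Pdgfb, Cd34 and Plaur, were followed in endothelial cells of mouse embryos, of the lymphatic kind (LEC) and of the blood vascular kind (BEC). The 6 genes were chosen by name, with earlier results of these data known, and each had exactly 1 array row with a single gene symbol. They were read against all 19938 genes measured. Total RNA of each sample was hybridised to an Affymetrix Mouse Gene 1.0 ST array, and levels are the authors' log2 RMA values, on which a difference of 1 is a 2-fold difference. The 18 arrays form 6 groups of 3 biological replicates, which are LEC and then BEC, each of embryonic day E14.5, of E16.5 or of E18.5. Per the design text, LEC and BEC of an age came from 3 matching litters. No genotype, treatment or strain is given in the labels, and the isolation of the cells is given by a citation that was not used here.

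Apelin is a secreted peptide that signals through a G protein-coupled receptor encoded by Aplnr, and the pathway is known for its part in the growth and calibre of blood vessels. During sprouting, a tip cell leads and stalk cells follow, and tip cells of the mouse retina are known to be rich in Apln, Esm1, Pdgfb, Plaur and other transcripts, whereas Aplnr is associated with veins and with cells behind the tip. Esm1 encodes endocan, a secreted proteoglycan induced by VEGF, Pdgfb encodes the growth factor that recruits pericytes, Cd34 encodes a sialomucin of the cell surface, and Plaur encodes the urokinase receptor, which holds the protease urokinase at the cell surface.

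Promoter sequences of 3 genes are shown because these genes lay on opposite sides of the comparison between LEC and BEC. RefSeq promoter windows (build GRCm38.p6, 250 bases before to 50 after the start site) matched 4 of the 6 genes, namely Apln, Esm1, Cd34 and Plaur. The windows of Apln (chrX:48034804-48035103, minus strand) and Cd34 (chr1:194938571-194938870, plus strand) belong to genes lower in LEC, and that of Plaur (chr7:24462233-24462532, plus strand) to the gene higher in LEC. Each is written 5′ to 3′ on the strand of the gene, and capitals mark every match, on either strand, to the ETS core GGAAG, to the letters AGATAA bound by GATA factors, to the hypoxia-response core ACGTG or to the AP-1 letters TGACTCA.
Apln: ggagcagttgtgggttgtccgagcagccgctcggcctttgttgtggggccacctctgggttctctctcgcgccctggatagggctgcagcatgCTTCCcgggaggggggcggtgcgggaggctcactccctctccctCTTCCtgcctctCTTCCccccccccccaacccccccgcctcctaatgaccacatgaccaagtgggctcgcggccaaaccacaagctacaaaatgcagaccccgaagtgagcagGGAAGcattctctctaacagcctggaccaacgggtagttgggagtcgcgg
Cd34: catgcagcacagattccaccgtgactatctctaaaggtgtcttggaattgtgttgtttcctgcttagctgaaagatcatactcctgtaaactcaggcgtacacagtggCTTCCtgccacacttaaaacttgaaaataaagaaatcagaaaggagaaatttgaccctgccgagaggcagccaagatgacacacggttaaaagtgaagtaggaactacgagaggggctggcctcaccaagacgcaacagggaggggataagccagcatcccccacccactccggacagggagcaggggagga
Plaur: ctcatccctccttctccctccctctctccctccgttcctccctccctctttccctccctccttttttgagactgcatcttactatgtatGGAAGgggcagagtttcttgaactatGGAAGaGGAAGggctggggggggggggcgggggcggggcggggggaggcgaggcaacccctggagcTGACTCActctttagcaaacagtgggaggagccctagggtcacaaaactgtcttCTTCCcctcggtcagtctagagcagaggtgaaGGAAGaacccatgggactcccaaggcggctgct
The ETS letters matched 4 times in the Apln window, 1 time in Cd34 and 5 times in Plaur, and no match overlapped another motif. Of 32851 promoter windows of the same length, 71.4% held GGAAG at least once, 6.0% at least 4 times and 2.1% at least 5 times. The Plaur window also held TGACTCA at position -69 from the start site, which 5.2% of all windows hold. The letters AGATAA, held by 11.2% of all windows, and the core ACGTG, held by 19.6%, had 0 matches in the 4 windows, and the Esm1 window (chr13:113209409-113209708, plus strand, not shown) matched none of the 4 motifs. The motifs were chosen after the sequences were seen, and a match is a description of letters only.

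The labels were checked against cell type markers. Prox1, the lymphatic master regulator, had group means of 10.49, 11.02 and 11.13 in LEC and 7.97, 6.03 and 6.04 in BEC from E14.5 to E18.5. Of 9 measured LEC markers, 8 were called higher and 0 lower in LEC over the 3 ages, and of 10 BEC markers 9 were called lower. Of 12 general endothelial markers 10 were called lower and 0 higher in LEC (median -1.06, against -0.02 for all genes), and Pecam1 and Cdh5 were present in every group, with group means of 10.06 to 11.02 in LEC and 11.31 to 11.98 in BEC. Arrays of a group correlated at 0.986 to 0.996. The interquartile range of all rows was 3.182 to 3.362 on the 6 E18.5 arrays and 3.403 to 3.641 on the other 12, so that changes to E18.5 go with a narrower spread of values. Markers of other cell types differed as well. Levels of mural cell, macrophage, mast cell and leukocyte markers are given beside single genes below, and those of platelet, fibroblast and erythroid markers are not given. A bulk array cannot tell fewer cells of a type from less RNA per cell.

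Of the 6 genes, 5 were lower and 1, Plaur, was higher in LEC in the mean of the 3 ages (limma, adjusted p under 0.05). Of all genes 37.1% were called there, 19.0% lower and 18.2% higher. The same 5 were lower and Plaur higher at each single age. The share of all genes called was 16.5% for E14.5 (7.94% lower, 8.60% higher), 25.2% for E16.5 (12.2% lower, 13.0% higher) and 30.4% for E18.5 (15.9% lower, 14.6% higher). For all 6 genes the 9 LEC arrays did not overlap the 9 BEC arrays, which held for 8.67% of all genes. Within each age, 3 arrays against 3, LEC and BEC did not overlap for 6 of 6 genes, as for 37.2% of all genes on E14.5, 40.4% on E16.5 and 34.9% on E18.5. The median difference of the 6 genes was -3.44 over the 3 ages, against -0.02 for all genes. These calls stood in every alternative run, and the plot of levels by array shows the separation.

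**Figure D1:**
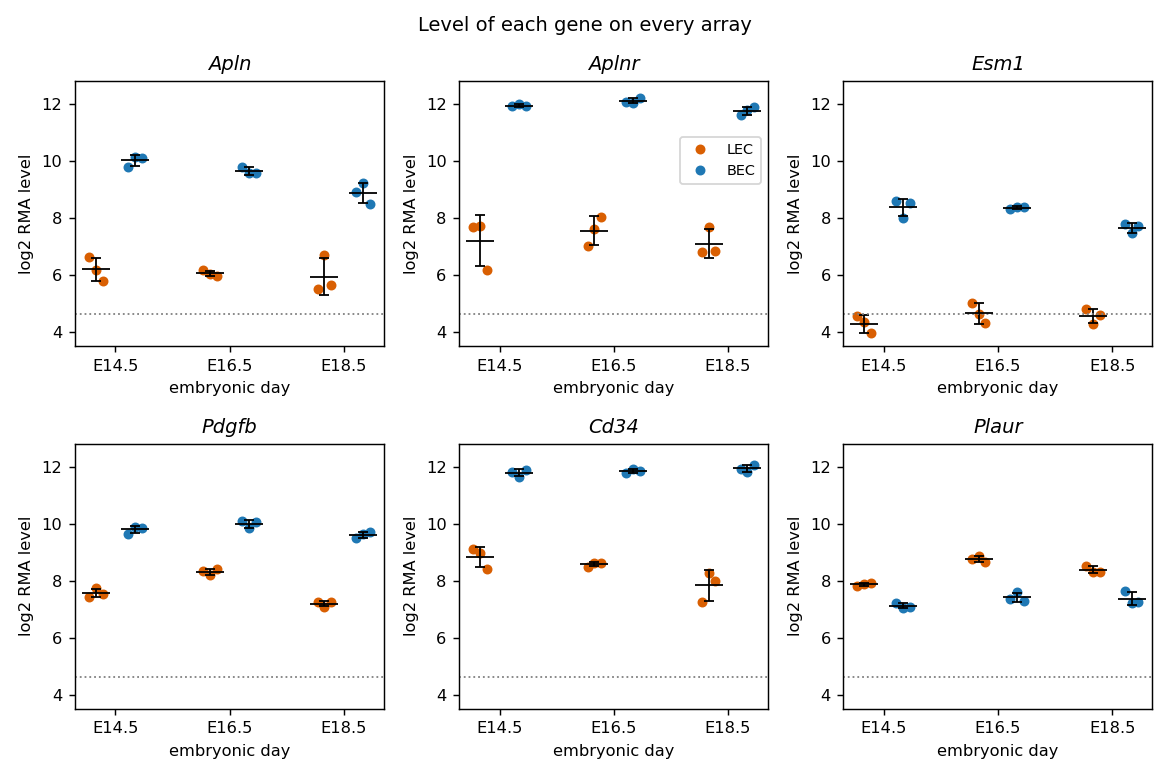
Level of each gene (log2 RMA, vertical axis) on all 18 arrays by embryonic day, with LEC in orange left of BEC in blue. Points are arrays, bars are the mean and SD of 3 arrays, and the dotted line is the bound for dim genes at 4.62. LEC arrays lie below BEC arrays for Apln, Aplnr, Esm1, Pdgfb and Cd34 and above them for Plaur.

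Apln, the ligand gene, was 10.9-fold lower in LEC, a LEC minus BEC difference of -3.45 ± 0.14 (SE; adjusted p = 2.6e-13 by limma) with the ages together. In LEC its levels were 6.62, 6.16 and 5.80 at E14.5, 6.16, 6.03 and 5.96 at E16.5, then 5.51, 6.68 and 5.63 at E18.5. In BEC they were 9.80, 10.14 and 10.09 at E14.5, 9.80, 9.56 and 9.57 at E16.5, then 8.92, 9.21 and 8.50 at E18.5. The highest LEC array of all, replicate 2 of E18.5, lay below the lowest BEC array. The 3 LEC groups overlapped one another, and in the order of BEC groups E14.5 and E16.5 overlapped while E18.5 lay below both.

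The gap between the cell types for Apln was 14.1-fold at E14.5 (LEC minus BEC -3.82 ± 0.25), 12.1-fold at E16.5 (-3.60 ± 0.25), then 7.64-fold at E18.5 (-2.93 ± 0.25). In BEC, Apln fell by 1.14 ± 0.25 from E14.5 to E18.5 (adjusted p = 0.0017), while in LEC the difference was -0.25 ± 0.25 (adjusted p = 0.46). These age changes were not shown to differ, at 0.89 ± 0.35 between LEC and BEC (adjusted p = 0.15). Without LEC E18.5 replicate 2, the Apln difference in LEC was -0.62 (adjusted p = 0.025; 0.025 to 0.94 over all alternatives). The step in BEC from E16.5 to E18.5 was a fall of 0.77 ± 0.25 (adjusted p = 0.026), a call lost with quantile normalization (-0.67, adjusted p = 0.078; 0.0047 to 0.11 over all alternatives), without moderation of the variance (adjusted p = 0.066), and without BEC E16.5 replicate 1 (-0.69) or 2 (-0.81) or BEC E18.5 replicate 1 (-0.79) or 3 (-0.58).

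Aplnr, the receptor gene, was far lower in LEC than in BEC on every array. In LEC its levels were 7.70, 7.73 and 6.18 at E14.5, 7.03, 7.61 and 8.02 at E16.5, then 6.80, 7.68 and 6.82 at E18.5. In BEC they were 11.91, 11.99 and 11.91 at E14.5, 12.06, 12.05 and 12.21 at E16.5, then 11.62, 11.78 and 11.89 at E18.5. LEC arrays spread widely within each age, with SDs of 0.50 to 0.88, and BEC arrays narrowly, with SDs of 0.04 to 0.14. Aplnr was 25.1-fold lower in LEC (LEC minus BEC -4.65 ± 0.18, adjusted p = 1.2e-13), with -4.73 ± 0.32 on E14.5, -4.55 ± 0.32 on E16.5 and -4.66 ± 0.32 on E18.5.

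With age, Aplnr did not change past the test in either cell type. From E14.5 to E18.5 the difference was -0.10 ± 0.32 in LEC (95% interval -0.78 to 0.57, adjusted p = 0.83) and -0.18 ± 0.32 in BEC (-0.85 to 0.50, adjusted p = 0.73). The 3 BEC groups did not overlap, in the order E16.5, E14.5 and E18.5 from high to low, although none of these steps passed the test of the fit, whose error is pooled over all groups. The difference between the age changes was 0.07 ± 0.45 (-0.88 to 1.02), an interval that leaves room for a change of the gap in either direction.

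Levels of blood endothelial genes within the LEC arrays moved with some of these values. The mean level of the 10 BEC markers, which contain none of the 6 genes, was 6.88, 6.88 and 6.50 on the LEC arrays of E14.5, 7.19, 7.38 and 7.55 at E16.5, then 7.58, 7.87 and 7.80 at E18.5, against 9.78 to 10.52 in BEC. These markers include Gja4, with group means of 7.02, 9.49 and 9.08 in LEC and 8.55, 8.75 and 8.01 in BEC from E14.5 to E18.5. Its LEC means thus lay above those of BEC at E16.5 and E18.5. LEC E14.5 replicate 3, the lowest of its group in BEC markers, was also the lowest in Apln, Aplnr and Cd34. LEC E18.5 replicate 2, the highest of its group in BEC markers, was also the highest in Apln, Aplnr and Cd34 but the lowest in Pdgfb. LEC E16.5 replicate 3, the highest of its group in BEC markers, was the highest in Aplnr and Pdgfb but the lowest in Apln. The LEC arrays were not ranked by Esm1, since 7 of 9 lay below the dim bound of 4.62. On the BEC arrays, the mean level of the 9 LEC markers was 8.63 to 8.85 at E14.5, 7.80 to 7.83 at E16.5, then 7.34 to 7.55 at E18.5. The part of BEC RNA in the LEC values, or of LEC RNA in the BEC values, was not tested.

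Other genes of the apelin pathway showed no shared direction. Of 18 listed genes 17 were measured, of which 8 were called higher and 4 lower in LEC over the 3 ages (median 0.05, against -0.02 for all genes). The other ligand gene of the receptor, Apela, lay below 4.62, the 95th percentile of olfactory and vomeronasal receptor genes, on all 18 arrays, with group means of 2.90 to 3.18 in LEC and 2.90 to 3.21 in BEC. Mme, which encodes the protease neprilysin that can cleave apelin, lay below the bound on 16 of 18 arrays. Its group means were 3.73, 3.66 and 5.21 in LEC and 3.81, 3.70 and 4.12 in BEC from E14.5 to E18.5, so that the call over the 3 ages (adjusted p = 0.042) goes with the E18.5 arrays and no size is given for it. Higher in LEC were Arrb2 (0.81 ± 0.07), a beta-arrestin that binds activated receptors, the flow-responsive factor Klf4 (0.73 ± 0.10) and the FGF receptor Fgfr1 (0.85 ± 0.06), and lower was the histone deacetylase Hdac5 (-0.68 ± 0.05).

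Esm1 was near the limit of the arrays in LEC. Its levels there were 4.55, 4.34 and 3.94 at E14.5, 5.02, 4.61 and 4.31 at E16.5, then 4.80, 4.28 and 4.59 at E18.5. In BEC they were 8.57, 8.01 and 8.52 at E14.5, 8.31, 8.39 and 8.39 at E16.5, then 7.77, 7.46 and 7.73 at E18.5. Of the LEC arrays 7 of 9 lay below the bound of 4.62, and 0 of the 9 BEC arrays. At E14.5 all 3 LEC arrays did, so that there Esm1 was at least 13.4-fold lower in LEC, taking the BEC mean against the bound. With the ages together Esm1 was lower in LEC (adjusted p = 2.7e-15), and the fitted difference of -3.63 ± 0.11 rests on LEC values mostly below the bound.

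With age, Esm1 changed in BEC, while its LEC group means of 4.28, 4.65 and 4.55 lay about the bound of 4.62 and their order was not read. In BEC, Esm1 differed by -0.01 ± 0.19 from E14.5 to E16.5 (adjusted p = 0.99) and fell by 0.71 ± 0.19 from E16.5 to E18.5 (adjusted p = 0.0095). In LEC the change from E14.5 to E18.5 was 0.28 ± 0.19 (adjusted p = 0.27). The fitted changes from E14.5 to E18.5, of which the LEC one lies near or below the bound, differed between LEC and BEC by 0.99 ± 0.27 (adjusted p = 0.026), as 1 of 2 of the 6 genes called, where 8.85% of all genes were called, 5.02% higher and 3.83% lower. That call was lost with quantile normalization (0.78, adjusted p = 0.082; 0.01 to 0.082 over all alternatives), with array weights (adjusted p = 0.058), without moderation (adjusted p = 0.068), and without LEC E14.5 replicate 3 (0.83), LEC E18.5 replicate 1 (0.87), BEC E14.5 replicate 1 (0.89) or 3 (0.92) or BEC E18.5 replicate 2 (0.90).

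Pdgfb peaked at E16.5 in LEC. Its levels in LEC were 7.43, 7.73 and 7.53 at E14.5, 8.35, 8.20 and 8.40 at E16.5, then 7.26, 7.09 and 7.24 at E18.5. In BEC they were 9.63, 9.89 and 9.86 at E14.5, 10.09, 9.84 and 10.05 at E16.5, then 9.50, 9.64 and 9.69 at E18.5. The 3 LEC groups did not overlap, whereas BEC arrays of E14.5 overlapped those of both other ages. Pdgfb was 4.31-fold lower in LEC (LEC minus BEC -2.11 ± 0.06, adjusted p = 2.9e-15), with the narrowest gap at E16.5 (-1.68 ± 0.11, 3.20-fold), against -2.23 ± 0.11 at E14.5 and -2.42 ± 0.11 at E18.5 (5.35-fold).

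In LEC, Pdgfb rose by 0.75 ± 0.11 from E14.5 to E16.5 (adjusted p = 0.00016) and fell by 1.12 ± 0.11 from E16.5 to E18.5 (adjusted p = 1.2e-06). In BEC the same steps were 0.20 ± 0.11 (adjusted p = 0.27) and a fall of 0.38 ± 0.11 (adjusted p = 0.015). The later step differed between LEC and BEC by -0.74 ± 0.16 (adjusted p = 0.013), a call made for 1 of the 6 and for 3.65% of all genes (2.12% lower), and it stood in every alternative run. For the earlier step 0 of the 6 differences passed limma, against 2.63% of all genes, and Pdgfb and Plaur were the 2 at an unadjusted p under 0.05. That of Pdgfb was 0.55 ± 0.16 (adjusted p = 0.079; 0.026 to 0.23 over all alternatives), and it passed with array weights (0.52, adjusted p = 0.027), with an intensity trend (adjusted p = 0.026) and among genes above the dim bound (adjusted p = 0.048). The later BEC step was lost with quantile normalization (-0.28, adjusted p = 0.082; 0.0032 to 0.082 over all alternatives) and without BEC E16.5 replicate 1 (-0.33) or 3 (-0.35) or BEC E18.5 replicate 1 (-0.32). From E14.5 to E18.5 Pdgfb fell by 0.37 ± 0.11 in LEC (adjusted p = 0.012), a call lost without LEC E14.5 replicate 2 (-0.29, adjusted p = 0.076; 0.0024 to 0.076 over all alternatives).

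In the PDGF family, of 5 other genes 2 were called higher and 2 lower in LEC (median -0.05). The ligand genes Pdgfa (0.72 ± 0.07) and Pdgfc (0.60 ± 0.07) were higher in LEC and Pdgfd (-1.62 ± 0.09) was lower. Pdgfrb, the receptor of PDGF-B on pericytes, was lower in LEC (-0.46 ± 0.08, adjusted p = 7.7e-05). Its group means were 7.76, 7.93 and 6.25 in LEC and 6.62, 7.86 and 8.84 in BEC from E14.5 to E18.5, so that LEC lay above BEC at E14.5 and below it at E18.5. Pdgfrb is itself 1 of 10 mural cell markers, whose mean level was 5.39 to 5.82 on the 9 LEC arrays and 5.76 to 5.85, 6.56 to 6.71 and 7.75 to 7.85 on the BEC arrays of the 3 ages, with all 10, Pdgfrb included, called lower in LEC over the ages. In LEC the mean of Pdgfrb was lower at E18.5 than at E16.5 while the mural mean was not. Their part in the Pdgfb and Pdgfrb values was not tested.

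**Figure D2:**
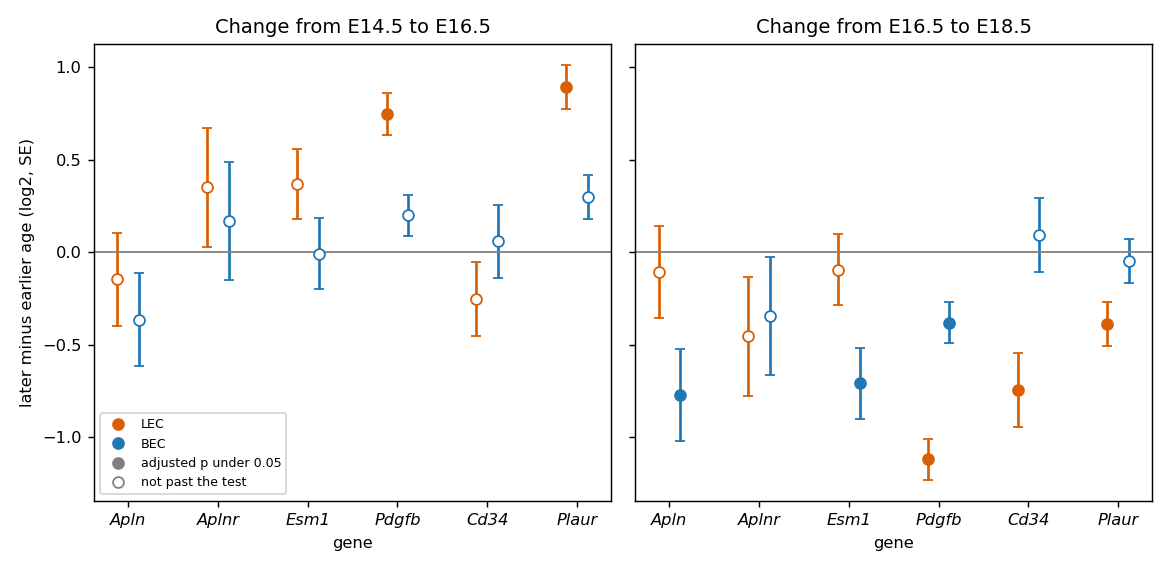
Change in level of each gene between neighbouring ages (log2, later minus earlier, with SE) in LEC (orange) and BEC (blue). Filled points passed the test at an adjusted p under 0.05. In LEC, Pdgfb and Plaur rose to E16.5 and fell after it, and Cd34 fell after E16.5, while in BEC Apln, Esm1 and Pdgfb fell after E16.5.

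Cd34 fell with age in LEC and did not change past the test in BEC. Its levels in LEC were 9.10, 8.98 and 8.42 at E14.5, 8.49, 8.63 and 8.62 at E16.5, then 7.24, 8.28 and 7.99 at E18.5. In BEC they were 11.81, 11.64 and 11.89 at E14.5, 11.77, 11.90 and 11.84 at E16.5, then 11.92, 11.82 and 12.06 at E18.5. The BEC groups overlapped in every neighbouring pair, and the LEC arrays of E18.5 lay below all earlier LEC arrays. Cd34 was 10.8-fold lower in LEC (LEC minus BEC -3.43 ± 0.11, adjusted p = 1e-14).

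The gap for Cd34 widened, at 7.72-fold at E14.5 (-2.95 ± 0.20), 9.57-fold at E16.5 (-3.26 ± 0.20), then 17.1-fold at E18.5 (-4.10 ± 0.20). From E14.5 to E18.5 Cd34 fell by 1.00 ± 0.20 in LEC (adjusted p = 0.00047), while in BEC it was higher at E18.5 by 0.15 ± 0.20 (adjusted p = 0.62). These changes differed by -1.15 ± 0.28 (adjusted p = 0.013), which held in every alternative run. After E16.5, Cd34 fell by 0.74 ± 0.20 in LEC (adjusted p = 0.0074). Without LEC E18.5 replicate 1, the lowest Cd34 array, that step was -0.45 (adjusted p = 0.041; 0.0014 to 0.041 over all alternatives), and without replicate 2 it was -0.96. Over the same ages the mean of the BEC markers on LEC arrays, Gja4 included, was higher at E18.5 (7.58 to 7.87) than at E14.5 (6.50 to 6.88). For the late step alone the difference between LEC and BEC was -0.84 ± 0.28 (adjusted p = 0.11), past the test with an intensity trend (adjusted p = 0.047; 0.036 to 0.19 over all alternatives) and without LEC E18.5 replicate 2 (-1.06, adjusted p = 0.036), and -0.54 without LEC E18.5 replicate 1 (adjusted p = 0.16).

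Of the Cd34 sialomucin family and its ligands 6 of 8 genes were measured, with 3 lower and 1 higher in LEC (median -0.63). Podxl, the podocalyxin gene and close relative of Cd34, was lower in LEC (-1.15 ± 0.06, adjusted p = 2.1e-12), with group means of 8.18, 8.41 and 9.03 in LEC and 9.29, 9.65 and 10.13 in BEC from E14.5 to E18.5. Its means thus went up with age in LEC, where those of Cd34 went down. The addressin gene Madcam1 (-2.85 ± 0.09) and the endomucin gene Emcn (-2.50 ± 0.08), which is also in the BEC and general endothelial marker lists, were lower too, and Selplg, which encodes a selectin ligand of leukocytes, was higher (1.59 ± 0.09).

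Plaur was the 1 gene of the 6 that was higher in LEC. Its levels there were 7.81, 7.87 and 7.91 at E14.5, 8.77, 8.86 and 8.66 at E16.5, then 8.51, 8.31 and 8.29 at E18.5. In BEC they were 7.21, 7.05 and 7.09 at E14.5, 7.36, 7.59 and 7.29 at E16.5, then 7.64, 7.22 and 7.24 at E18.5. The LEC groups did not overlap one another, in the order E16.5, E18.5 and E14.5 from high to low, and all lay above every BEC array. With the ages together Plaur was higher in LEC by 1.03 ± 0.07 (adjusted p = 2.8e-10), or 2.05-fold. The difference was 0.75 ± 0.12 on E14.5, 1.35 ± 0.12 on E16.5 and 1.00 ± 0.12 on E18.5.

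In LEC, Plaur rose by 0.89 ± 0.12 from E14.5 to E16.5 (adjusted p = 6.1e-05), beside 13.8% of all genes called. It then fell by 0.39 ± 0.12 to E18.5 (adjusted p = 0.018), a call lost with quantile normalization (-0.32, adjusted p = 0.063; 0.0026 to 0.069 over all alternatives), with LEC of these ages alone in the fit (adjusted p = 0.053), and without LEC E16.5 replicate 2 (-0.34) or LEC E18.5 replicate 2 (-0.36) or 3 (-0.35). In BEC the same steps were 0.30 ± 0.12 (adjusted p = 0.12) and -0.05 ± 0.12 (adjusted p = 0.79). The early rise differed between LEC and BEC by 0.60 ± 0.17 (adjusted p = 0.075; 0.0058 to 0.2 over all alternatives), and passed the test with the 4 compared groups alone (adjusted p = 0.026), with array weights (0.62, adjusted p = 0.0058), with an intensity trend (adjusted p = 0.035), among genes above the dim bound (adjusted p = 0.047) and without BEC E18.5 replicate 1 (adjusted p = 0.033).

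Plaur is also known to be expressed by macrophages and other myeloid cells, and all 14 macrophage markers were called higher in LEC over the 3 ages (median 2.46). The mean level of these markers was 5.96, 5.96 and 5.79 on LEC arrays at E14.5, 7.80, 6.97 and 7.83 at E16.5, then 8.39, 8.45 and 7.90 at E18.5. In BEC it was 4.98 to 5.02 at E14.5, 4.81 to 4.82 at E16.5, then 4.88 to 5.26 at E18.5, with 5 to 7 of the 14 markers below the dim bound on each array, against 0 to 3 in LEC. From E14.5 to E16.5 both the macrophage mean and Plaur were higher at the later age on every LEC array, and at E18.5 replicate 3 was the lowest LEC array in both. At E16.5 the LEC array lowest in macrophage markers, replicate 2, was the highest in Plaur, and from E16.5 to E18.5 Plaur was lower on the LEC arrays whereas the macrophage mean was higher. All 9 mast cell markers were called higher in LEC as well (median 2.68). Their mean level was 9.30, 9.73 and 9.10 on LEC arrays at E14.5, 10.27, 10.32 and 10.26 at E16.5, then 10.49, 10.14 and 10.07 at E18.5. In BEC it was 6.38 to 8.21. At E16.5 and at E18.5 the LEC arrays stood in the same order in this mean and in Plaur. At E14.5 replicate 3 was the lowest in this mean and the highest in Plaur. Of 8 measured leukocyte markers 5 were called higher and 1 lower in LEC (median 0.69). On LEC arrays their mean level was 7.14 to 7.35 at E14.5, 7.35 to 7.44 at E16.5, then 6.71 to 7.01 at E18.5. In BEC it was 5.61 to 6.53. After E16.5 this mean, like Plaur, was thus lower on the LEC arrays. At E18.5 the LEC arrays stood in the same order in both, and at E14.5 and at E16.5 in the opposite order. The part of these cells in the Plaur values was not tested.

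Plau, which encodes urokinase, the ligand of the receptor, was also higher in LEC. It was higher by 1.55 ± 0.07 over the 3 ages (adjusted p = 6.7e-13), with group means of 10.59, 9.90 and 9.76 in LEC and 9.24, 8.37 and 7.99 in BEC from E14.5 to E18.5. Its means thus stood highest at E14.5 in both cell types, whereas Plaur stood highest at E16.5. In the urokinase system 3 of 12 measured genes were called higher and 4 lower in LEC (median -0.06). The integrin subunit gene Itgav was higher (1.37 ± 0.06), and the vitronectin gene Vtn (-0.50 ± 0.09) and the integrin gene Itgb1 (-0.29 ± 0.06) were lower.

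**Figure D3:**
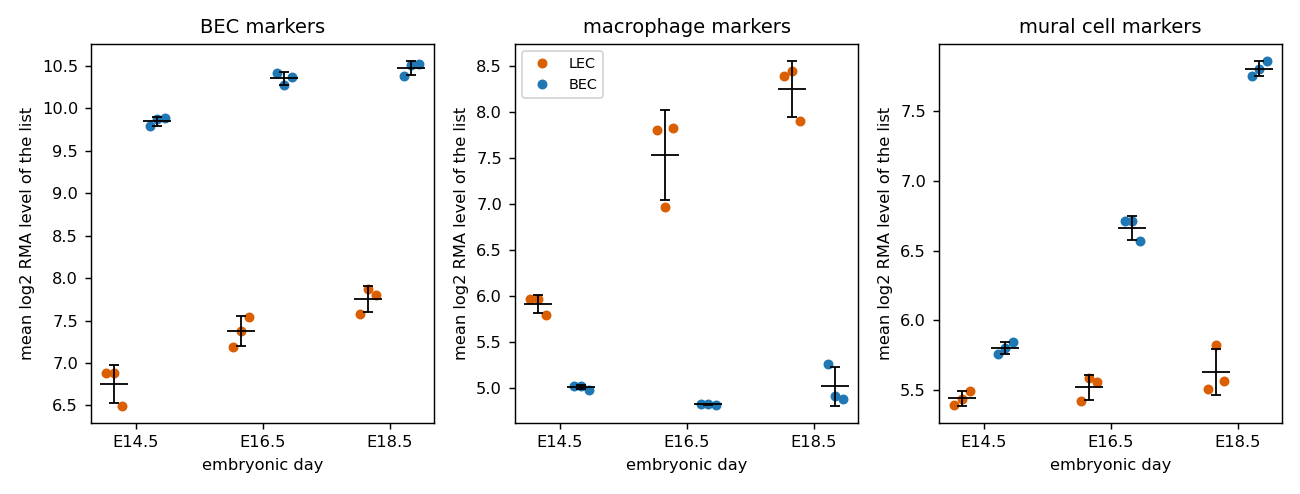
Mean level (log2 RMA, vertical axis) of the genes of 3 marker lists on each array by embryonic day, with LEC in orange left of BEC in blue, and the mean and SD of 3 arrays as bars. BEC markers in LEC arrays lie between 6.50 and 7.87, macrophage markers in LEC between 5.79 and 8.45, and mural cell markers reach 7.75 to 7.85 in BEC at E18.5. The vertical axes differ between panels.

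Side by side, the gaps of the 6 genes followed different courses over the ages. They were narrowest at E18.5 for Apln, widest there for Cd34, narrowest at E16.5 for Pdgfb, widest at E16.5 for Plaur, and for Aplnr lay between -4.73 and -4.55. For Esm1 the LEC side lay about the dim bound, and the plotted values are the fitted ones. Of these courses, a difference of age changes between LEC and BEC passed the test for Esm1, Cd34 and the later step of Pdgfb.

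**Figure D4:**
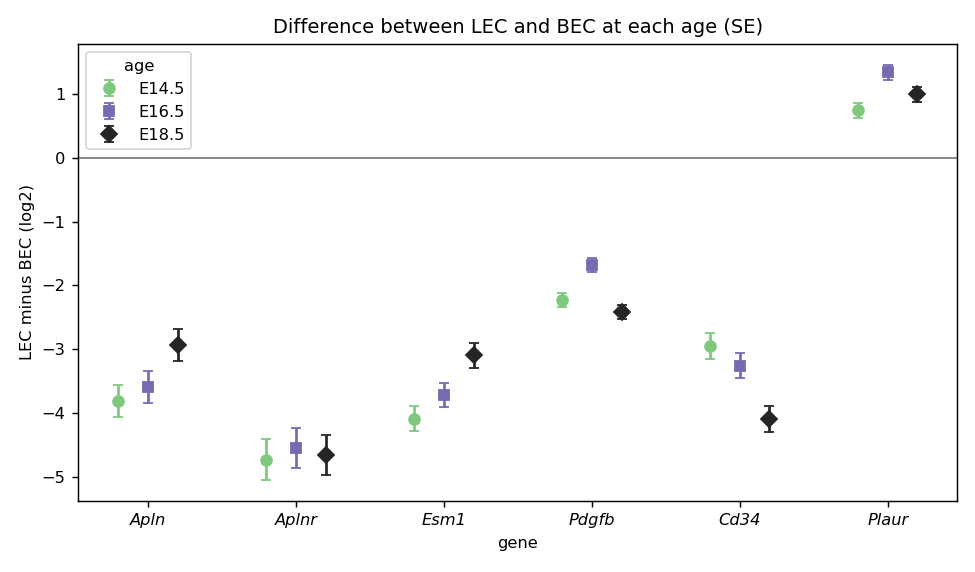
Difference between LEC and BEC (LEC minus BEC, log2, with SE) of each gene by embryonic day. Points below 0 are lower in LEC, and Plaur is the gene above 0 at every age.

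Counts of the 6 genes with age were read against all genes. From E14.5 to E16.5, 2 of the 6 were called in LEC, both higher, where 13.8% of all genes were called (8.07% higher), and 0 in BEC, where 9.76% were called by limma. At an unadjusted p under 0.05, Plaur alone was past it in BEC (0.30 ± 0.12). From E16.5 to E18.5, 3 were called in LEC and 3 in BEC, all lower, where 34.4% of all genes in LEC (18.5% lower) and 32.3% in BEC (16.4% lower) were called. From E14.5 to E18.5, 3 in LEC (1 higher, 2 lower) and 2 in BEC (both lower) were called, where 40.9% of all genes in LEC (19.7% higher, 21.2% lower) and 30.6% in BEC (17.3% lower) were.

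Other genes described for tip cells were lower in LEC in most cases. Of 24 listed genes 17 were called lower and 3 higher over the 3 ages (median -1.32, against -0.02 for all genes). The semaphorin and VEGF co-receptor gene Nrp1 (-3.74 ± 0.12), the insulin-like growth factor binding protein gene Igfbp3 (-3.49 ± 0.08), the adhesion gene Mcam (-3.48 ± 0.07) and Rgcc (-2.86 ± 0.08) had the widest gaps. The chemokine receptor gene Cxcr4 (-2.33 ± 0.10), the Notch ligand gene Dll4 (-1.33 ± 0.07) and the VEGF receptor gene Kdr (-0.40 ± 0.05, adjusted p = 5.9e-06) were lower too. The 3 genes called higher in LEC were the VEGFC receptor gene Flt4 (2.03 ± 0.07), the TIE2 ligand gene Angpt2 (1.49 ± 0.07) and the membrane protease gene Mmp14 (0.61 ± 0.07), of which Flt4 and Mmp14 were named after their values were seen and Flt4 is also in the list of LEC markers. Nrp1 is also in the list of BEC markers and Kdr in that of general endothelial markers. Plaur thus shared its direction with 3 of the 24.

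Genes of stalk and resting endothelium were lower as well, with 8 of 12 measured genes called lower and 1 higher in LEC (median -1.01). Among them were the VEGF receptor gene Flt1 (-4.14 ± 0.10), which in vessels limits VEGF signalling, von Willebrand factor Vwf (-3.33 ± 0.10), Notch4 (-3.06 ± 0.07) and the Notch feedback gene Nrarp (-1.68 ± 0.06). The gene higher in LEC was Hes1 (0.92 ± 0.09), a Notch target, named after its value was seen. Flt1, Vwf and Notch4 are also in the list of BEC markers. The median of the general endothelial markers, -1.06, lay beside the medians of the stalk list (-1.01) and the tip cell list (-1.32). These lists share genes, since the general markers Tie1 and Tek are also in the stalk list and Kdr and Robo4 in the tip cell list.

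**Figure D5:**
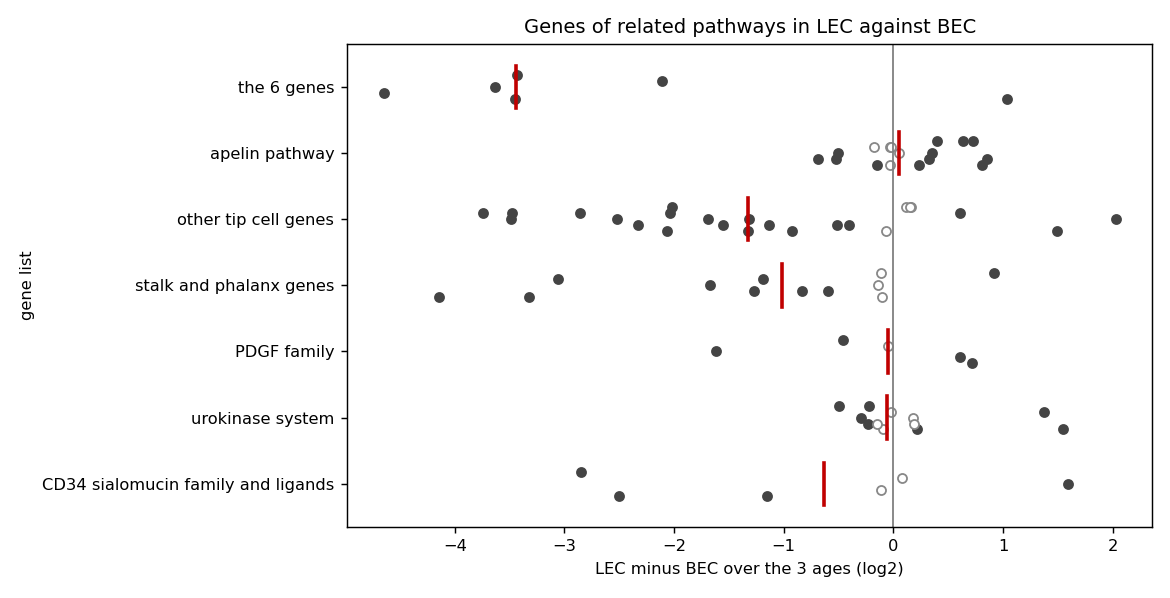
Difference between LEC and BEC over the 3 ages (log2, horizontal axis) for the 6 genes and for 6 lists of related genes. Filled points passed the test at an adjusted p under 0.05, open points did not, and the red bar is the median of the list. The medians lie at -3.44 for the 6 genes, -1.32 for other tip cell genes and 0.05 for the apelin pathway.

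The genes most like each of the 6 in their levels were sought by Pearson correlation over the 18 arrays, among 13863 others with a group mean above the dim bound. These correlations are descriptions over points that fall into a LEC and a BEC cluster. The genes most like Apln were Plac1 (r = 0.990), Arhgef17 (0.988), Pcdh17 (0.984) and Prrg3 (0.982). Those most like Aplnr were Tmem255a (0.992), Pcdh17 (0.991), Pcdh1 (0.991) and Lpar4 (0.989), so that the protocadherin gene Pcdh17 stood in the list of the ligand and of the receptor. A shared gene was not particular to this pair, since Prrg3 also stood in the list of Esm1 and Tmem255a in that of Cd34.

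Esm1 was most like Arhgef5 (0.986), Gpx8 (0.984), Prrg3 (0.983) and Pon2 (0.983). Within the 9 LEC arrays, where Esm1 lay near the bound, its correlation with these 4 was -0.41, -0.13, -0.07 and 0.71, and within the 9 BEC arrays 0.84, 0.85, 0.84 and 0.70. Pdgfb was most like the TGF-beta co-receptor gene Eng (0.984), Septin4 (0.981), the collagen gene Col4a1 (0.980) and Tmem184b (0.976), with 0.84 to 0.96 for these 4 within LEC and 0.39 to 0.89 within BEC. Cd34 was most like the endothelial guidance receptor gene Robo4 (0.992), Tmem255a (0.991), Pde2a (0.990) and Sparc (0.990). Within LEC these 4 stood at 0.79 to 0.95 with Cd34, and within BEC at -0.40 to 0.41. Plaur was most like Cyria (0.975), Zbtb38 (0.968), Tiam2 (0.966) and Gla (0.958), all higher in LEC, by 1.14 to 2.29.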

How the data were processed

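Levels of RNA in 18 samples were read from Affymetrix Mouse Gene 1.0 ST arrays. The deposited values are on a log2 scale. The submitters' processing notes name oligo 1.54.1 and RMA for them, and do not say whether 1 run covered the whole set of arrays. Arrays give no read depth, and their number limits the precision.

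Of 35556 rows, 21789 had 1 gene symbol in the platform annotation, 1621 had several and 12146 were not listed. The brightest row per gene was kept, which left 19938 genes. A model of the 6 groups was fitted with limma 3.58.1 under R 4.3.3 (lmFit, eBayes without trend, 12 residual and 6.11 prior degrees of freedom), with 13 contrasts. Two-sided p values were adjusted within each contrast (Benjamini-Hochberg, all genes), and a call needs an adjusted p under 0.05. Errors are standard errors of the fit unless SD is named. The fit was tested on simulated data with known changes. A gene is called dim below 4.62, the 95th percentile of the group means of 1194 olfactory and vomeronasal receptor genes.

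The 6 genes, the lists and the tests were chosen with earlier results of these data known. Named from the pathway lists were at most the 4 called genes with the widest gap and a fixed set, of which Apela, Mme, Plau, Pdgfa, Pdgfrb, Podxl, Dll4, Kdr, Angpt2 and Cxcr4 are reported here, and for likeness the 4 best-correlated genes, passing over predicted, RIKEN, olfactory, vomeronasal and microRNA genes. Alternatives changed the scale, the fit, the filter, the row per gene and the arrays included.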

Additional observations from a re-analysis of the deposited data

Results flagged for a closer look

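A difference of the age changes between LEC and BEC passed limma's test for 3 of the 6 genes. From E14.5 to E18.5 these were 2 of 6, where 8.85% of all genes were called, and from E16.5 to E18.5 1 of 6, where 3.65% were. For Esm1 the change from E14.5 to E18.5 was higher in LEC than in BEC by 0.99, a call lost in 8 of 27 alternatives, with LEC levels near or below the dim bound. For Cd34 that change was lower in LEC than in BEC by 1.15 (LEC minus BEC -1.15). For Pdgfb the change from E16.5 to E18.5 was lower in LEC than in BEC (LEC minus BEC -0.74). Groups of 3 arrays are too small for a test of single outlying arrays.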

How the results depend on the processing

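Between LEC and BEC, all 6 genes kept their direction and their call in every alternative run, over the 3 ages and at each age. Of 78 differences of the 6 genes, 67 stayed on the same side of the threshold throughout, and 0 that were called changed sign. Some differences that were not called did change sign. In LEC from E14.5 to E16.5, that of Aplnr was 0.35, and -0.16 to 0.62 over the alternatives, and that of Apln was -0.14, and -0.34 to 0.07. In BEC from E14.5 to E16.5 the number of the 6 genes called was 0, and 1 with array weights or without the E18.5 arrays. In BEC from E16.5 to E18.5 it was 3, but 1 with quantile normalization and 1 to 3 with single arrays left out (1 without BEC E16.5 replicate 1 or BEC E18.5 replicate 1). For the difference of the changes from E14.5 to E16.5 it was 0, but 2 with array weights, 2 with an intensity trend, 2 above the dim bound, 1 with the compared groups alone, 1 without the E18.5 arrays and 0 to 1 with single arrays left out. From E16.5 to E18.5 it was 1, but 2 with an intensity trend and 1 to 2 with single arrays left out. From E14.5 to E18.5 it was 2, but 1 with quantile normalization, array weights or no moderation, and 1 to 2 with single arrays left out. The cause was not tested. The replicate block, possible only where LEC is set against BEC, gave 6 called genes over the 3 ages and at each age, and 0, 1 and 2 for the differences of age changes, with 7175 against 7404 of all genes called over the 3 ages. It changed no call of the 6 genes. The labels do not say that a number marks a litter, deviations of same-numbered LEC and BEC arrays correlated at -0.107 to 0.13 (3 of 9 pairs over 0.1), and 4 of 9 LEC arrays correlated best with the BEC array of their own number.

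The share of all genes called moved by over 1.5 times in some alternatives. At E18.5 it was 30.4%, and 18.6% with the compared groups alone. From E14.5 to E16.5 it was 13.8% in LEC and 8.82% to 22.8% over the alternatives, and 9.76% in BEC and 4.26% to 20.2%. For the differences of age changes it was 2.63% (1.55% to 6.09%), 3.65% (1.76% to 6.19%) and 8.85% (6.63% to 13.6%). Signal near the dim bound limits the size of the Esm1 gap.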
